A study of Mus musculus with 2 samples.

Results

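The pre-B cell receptor is described here through 8 genes: Igll1, Vpreb1, Vpreb3, Cd79a, Cd79b, Blnk, Mzb1 and Fcrla. They were taken by name, and all 8 were found among the 6001 genes listed in both libraries. Bone marrow cells (BMCs) were profiled by droplet single-cell RNA sequencing, in which each transcript is counted once through a unique molecular identifier (UMI). 1 library came from a wild type (WT) mouse and 1 from a Cko mouse, both at postnatal day 21 and on the C57BL/6J background, and red blood cells were lysed before loading. WT stands for S1P f/f, homozygous for a floxed exon 2 of Mbtps1, which encodes site-1 protease (S1P). Cko mice carry the same floxed alleles together with the Osx1-GFP::Cre transgene, so that S1P is ablated where the Osterix (Sp7) promoter is or was active. The WT mouse shares the floxed alleles but not the transgene. That promoter is known for its activity in bone-forming cells. The paper on these mice proposes that it is also active in the blood-forming lineage, and reports loss of exon 2 in Cko neutrophils. Whether Cre had acted in the B cells of the Cko mouse was not measured here.

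With 1 mouse per genotype no test between genotypes was possible. Every interval below is a 95% interval of counting error only, and the genotype cannot be told apart from the mouse, the library or its preparation. A value is called higher or lower in the Cko library as a description of these 2 libraries.

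The WT library held 6271 cells and the Cko library 3662 cells with at least 200 genes, with 56382459 and 34447224 UMIs in all barcodes and a median of 6977 and 7440 UMIs per cell. The deposited gene lists are filtered, since every listed gene reaches at least 4 UMIs in some cell, and 28 barcode sequences occur in both libraries. Transcripts of the targeted gene Mbtps1 stood at 31.9 CPM in WT and 31.2 CPM in Cko. CPM is the usual depth scaling, a gene's UMIs over all UMIs of the library or cell group. These 3′ tags lie outside the floxed exon, so they check nothing about the ablation.

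The receptor is built at the stage when a developing B cell has joined its first immunoglobulin heavy chain but has no light chain yet. Igll1 (lambda5) and Vpreb1 then stand in for the light chain as the surrogate light chain, and Cd79a and Cd79b (Igα and Igβ) anchor the complex and carry its signal. Blnk is the adaptor that links the Syk kinase to downstream enzymes. Signalling drives a burst of division, after which the surrogate light chain genes are shut off and light chain genes are joined. Vpreb3 binds heavy chains inside the cell, Mzb1 is a chaperone of the endoplasmic reticulum that aids immunoglobulin assembly, and Fcrla is an intracellular Fc receptor-like protein of B cells.

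Igll1 and Vpreb1 are neighbours. In the GRCm38 build with GENCODE vM21 genes, Igll1 lies on the minus strand at chr16:16860671-16863985 and Vpreb1 on the same strand at chr16:16868403-16870843, with 4417 bases between them. The other genes with a position here are each on another chromosome: Vpreb3 at chr10:75943057-75949657, Cd79a at chr7:24897381-24902197, Cd79b at chr11:106311341-106314762, Blnk at chr19:40928927-40994535 and Fcrla at chr1:170917576-170927583.

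The 250 bases before the RefSeq start of 4 of these genes are shown because Igll1 and Vpreb1 were detected together in single cells, and because Vpreb3 and Blnk are the ones whose window holds an octamer, the binding motif of the POU factors Oct-1 and Oct-2. Capitals mark the octamer ATGCAAAT, the E-box CAGGTG bound by E2A-type factors, and the spaced pair CCCNNGGG read by early B cell factor, on either strand. These motifs were chosen after the sequences had been seen. Coordinates are GRCm38.p6.

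Igll1 (chr16:16863986-16864235, minus strand): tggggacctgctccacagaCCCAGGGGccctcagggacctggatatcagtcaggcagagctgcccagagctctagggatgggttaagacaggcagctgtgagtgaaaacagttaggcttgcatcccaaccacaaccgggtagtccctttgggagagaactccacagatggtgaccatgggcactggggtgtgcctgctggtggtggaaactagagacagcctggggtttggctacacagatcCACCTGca
Vpreb1 (chr16:16869256-16869505, minus strand): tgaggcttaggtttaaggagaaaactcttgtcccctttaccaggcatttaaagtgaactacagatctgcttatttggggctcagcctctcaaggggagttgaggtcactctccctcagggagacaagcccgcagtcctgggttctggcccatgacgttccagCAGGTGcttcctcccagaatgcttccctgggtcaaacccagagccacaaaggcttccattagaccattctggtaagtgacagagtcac
Vpreb3 (chr10:75948050-75948299, plus strand): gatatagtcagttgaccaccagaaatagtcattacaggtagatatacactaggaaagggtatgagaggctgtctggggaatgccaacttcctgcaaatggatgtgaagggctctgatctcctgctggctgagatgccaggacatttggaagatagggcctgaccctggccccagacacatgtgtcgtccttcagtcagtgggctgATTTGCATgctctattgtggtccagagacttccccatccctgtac
Blnk (chr19:40994222-40994471, minus strand): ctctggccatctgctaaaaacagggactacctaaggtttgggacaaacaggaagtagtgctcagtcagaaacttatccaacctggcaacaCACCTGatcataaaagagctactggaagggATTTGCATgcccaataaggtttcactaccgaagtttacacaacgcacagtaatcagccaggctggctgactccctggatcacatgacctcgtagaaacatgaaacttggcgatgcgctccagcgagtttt

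RefSeq windows were found for 6 of the 8 genes. The octamer stood in 2 of these 6 windows against 1.60% of all 32851 mouse windows of the same length. An E-box was found in 5 of the 6 (Igll1, Vpreb1, Cd79a, Blnk and Fcrla) against 17.2% of all windows, and the CCCNNGGG pair in 1 of the 6, Igll1, against 11.8%. A match of letters is not a bound site, and the Vpreb1, Vpreb3 and Blnk windows lie inside the longer GENCODE gene models, while the Cd79a window overlaps its model in part.

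Cells were clustered without the 8 genes, so that their levels play no part in the classes. Of the resulting 18 clusters, 3 were B cell-like, each with 15 or 16 markers from a list of 27 B cell genes, of which 21 were listed in both libraries. They held 848 WT and 616 Cko cells. This was 24.96% [23.5 to 26.5] of 3397 non-erythroid WT cells and 19.3% [17.9 to 20.7] of 3200 in Cko. The non-erythroid cells include an unnamed cluster led by Mt2, with 721 WT and 114 Cko cells, which carried 7 erythroid markers. Of all cells they made up 13.5% in WT and 16.8% in Cko, so the order of the libraries turned with the denominator. The smallest of the 3 clusters, with 142 cells, carried 11 markers of another cell type list beside 16 of B cells. Scrublet called 9 B cell-like cells of each library doublets.

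The B cell-like cells fell into 6 sub-clusters. Pro-B-like cells, led by Dntt (terminal transferase), numbered 112 in WT and 108 in Cko, or 13.2% [11.001 to 15.7] and 17.5% [14.6 to 20.8] of the B cell-like cells. With each library clustered on its own the shares were 11.8% and 3.95%, so their order turned. A group led by Ccnd2, Srm and Srfbp1 held 249 and 117 cells and got no stage name, since it carried 0 stage markers. The largest group, led by Igkc, Lima1 and Pafah1b3, held 406 and 314 cells and carried 15 of 19 cycling markers, so it got no stage name and is called the Igkc group here. This name is a label only, since 4 WT cells held 7005 of the 7831 Igkc UMIs of its WT cells. At 3000 UMIs per cell its median was 1 Igkc UMI in either library. In immature or mature B-like cells it was 11 in WT and 10 in Cko. Immature or mature B-like cells, led by Iglc2, Cd74 and Ms4a1 (CD20), numbered 18 and 36. A group of 44 and 40 cells was led by the neutrophil genes Lcn2, Ngp and Camp, and 19 WT cells and 1 Cko cell were led by hemoglobin genes.

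The surrogate light chain genes were highest in pro-B-like cells and fell in steps over the groups, whose order in development was not tested. Igll1 stood at 2770 CPM in WT and 2649 CPM in Cko pro-B-like cells, at 1486 and 1507 CPM in the Ccnd2 group, and at 581 and 760 CPM in the Igkc group. In immature or mature B-like cells it was at 53.0 CPM (4 UMIs) in WT and 132 CPM (22 UMIs, 18 of them in 1 cell) in Cko. Each of these steps in CPM was larger than counting error in both libraries, and the order of the 4 groups was the same in both. Cells of the Ccnd2 group were deeper than pro-B-like cells, with a median of 9855 against 5631.5 UMIs in WT and 15471 against 8403 in Cko. Igll1 UMIs numbered 2005 in 112 pro-B-like and 3848 in 249 Ccnd2 group cells in WT, and 2739 in 108 and 2743 in 117 in Cko. Per cell the first step was thus smaller than in CPM. Vpreb1 took the same path, from 2608 CPM in WT and 2423 CPM in Cko pro-B-like cells to 940 and 973 CPM in the Ccnd2 group and 362 and 610 CPM in the Igkc group. In immature or mature B-like cells no Vpreb1 UMI was counted in WT, which allows up to 39.7 CPM (3 counts), and 13 UMIs (77.9 CPM, 10 of them in 1 cell) were counted in Cko. Against pro-B-like cells the Igkc group held 0.210 [0.195 to 0.226] of the Igll1 level in WT and 0.287 [0.269 to 0.305] in Cko. For Vpreb1 the same fractions were 0.139 [0.127 to 0.151] and 0.252 [0.235 to 0.270].

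Vpreb3 did not take this path. Its level was 2579 and 2198 CPM in pro-B-like cells, 1490 and 1212 CPM in the Ccnd2 group, and highest in the Igkc group at 3458 CPM in WT and 3386 CPM in Cko. In the Igkc group it was 1.34 [1.27 to 1.41] times the pro-B-like level in WT and 1.54 [1.47 to 1.62] times in Cko. In WT, 1867 Vpreb3 UMIs were counted in 112 pro-B-like cells and 6684 in 406 Igkc group cells. In Cko the counts were 2272 in 108 and 6945 in 314 cells. Per cell these groups were thus close. Immature or mature B-like cells held 1350 CPM in WT and 815 CPM in Cko. In CPM, Vpreb3 was thus highest in a group whose Igll1 and Vpreb1 levels were well under those of pro-B-like cells.

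Of these 4 groups, the Ccnd2 group had the least of both signalling chains in CPM and the immature or mature B-like cells the most. Cells of the Ccnd2 group were the deepest, and per cell this group did not hold the least Cd79a. It held 2270 Cd79a UMIs in 249 WT cells and 1545 in 117 Cko cells. The Igkc group held 2898 in 406 WT cells and 2993 in 314 Cko cells. Cd79a was at 1750 and 1535 CPM in pro-B-like cells, 877 and 849 CPM in the Ccnd2 group, 1499 and 1459 CPM in the Igkc group and 3045 and 2968 CPM in immature or mature B-like cells. Cd79b was at 608 and 577 CPM, 345 and 300.5 CPM, 1035 and 1017 CPM, and 1906 and 2296 CPM in the same groups. The pair did not change in proportion. For each Cd79a UMI there were 0.347 [0.311 to 0.387] Cd79b UMIs in WT and 0.376 [0.342 to 0.414] in Cko pro-B-like cells, and 0.690 [0.652 to 0.731] and 0.697 [0.658 to 0.737] in the Igkc group. In immature or mature B-like cells the ratio was 0.626 [0.505 to 0.774] in WT and 0.774 [0.675 to 0.886] in Cko.

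Blnk dipped sharply in the Ccnd2 group. Its level was 484 CPM in WT and 388 CPM in Cko pro-B-like cells, 92.7 and 65.4 CPM in the Ccnd2 group, and 390.1 and 258 CPM in the Igkc group. The Ccnd2 group thus held 0.192 [0.162 to 0.227] of the pro-B-like level in WT and 0.169 [0.136 to 0.207] in Cko. Mzb1 ran from 1337 and 1019 CPM in pro-B-like cells to 705 and 523 CPM in the Ccnd2 group and 1072 and 964 CPM in the Igkc group.

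Fcrla was nearly absent from pro-B-like cells, with 7 UMIs (9.67 CPM [3.89 to 19.9]) in WT and 6 UMIs (5.80 CPM [2.13 to 12.6]) in Cko. Against erythroid-like cells, at 3.87 and 3.58 CPM, this was 2.50 [0.971 to 5.40] and 1.62 [0.510 to 4.49] times, a difference within counting error. It was at 176 and 158 CPM in the Ccnd2 group and 566 and 666 CPM in the Igkc group. The Igkc group was 58.5 [28.3 to 146] times above pro-B-like cells in WT and 115 [52.6 to 313] times in Cko. The Ccnd2 group was 18.2 [8.75 to 45.5] and 27.3 [12.4 to 74.9] times above pro-B-like cells.

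**Figure D1:**
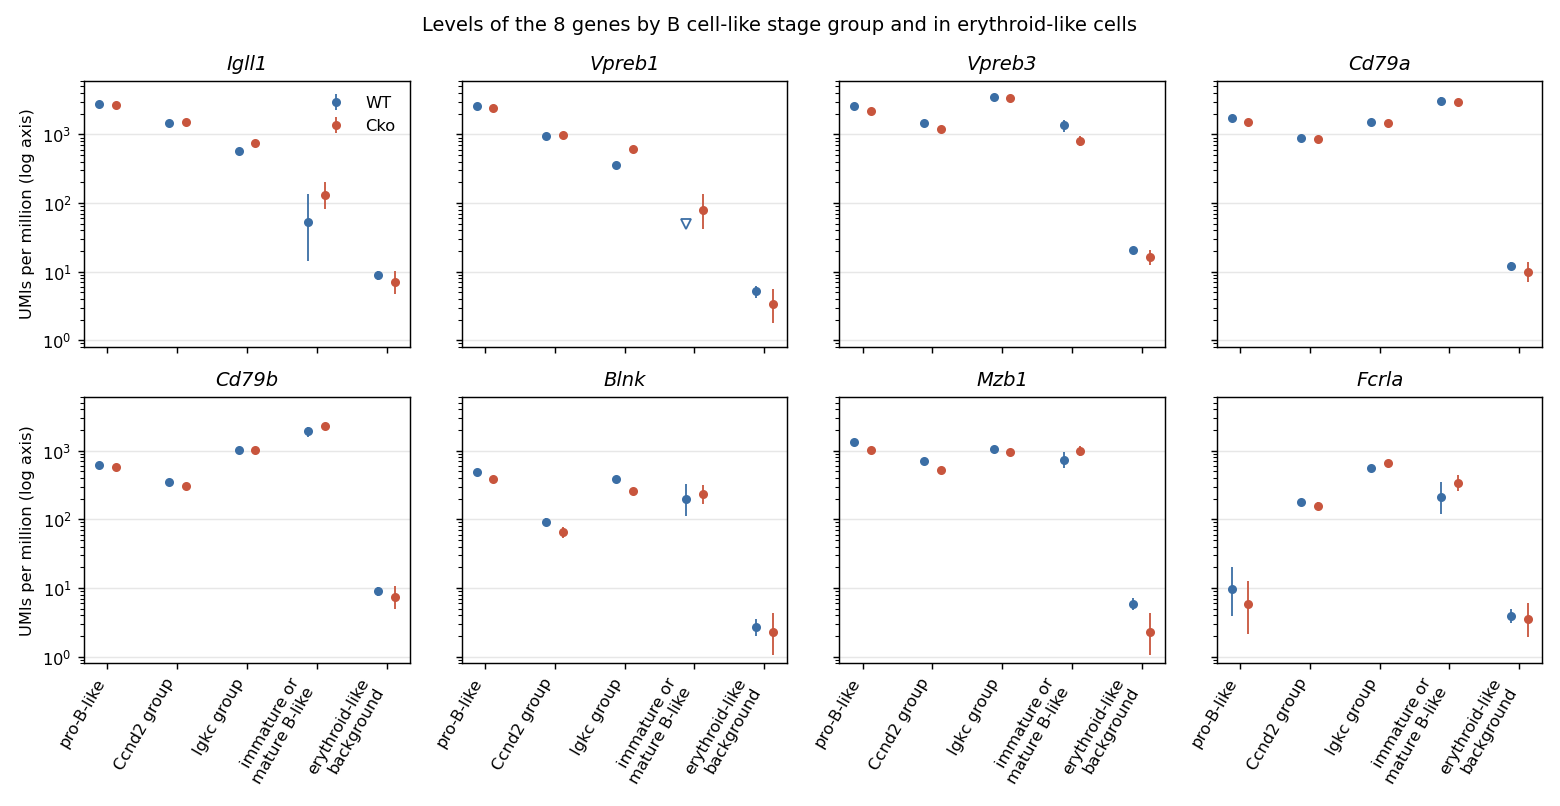
Level of each gene in CPM (log axis) in 4 B cell-like groups and in erythroid-like cells as background, WT in blue and Cko in red, with 95% counting intervals. Igll1 and Vpreb1 step down from left to right, Vpreb3 peaks in the Igkc group, Blnk dips in the Ccnd2 group and Fcrla is at 9.67 CPM or less in pro-B-like cells. The open triangle is the upper end of the interval for Vpreb1 with no UMI in WT.

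To compare shares of cells, each cell was thinned to 3000 UMIs, which left out no B cell-like cell. The background is the share in erythroid-like cells, which should lack these genes. They were taken without 1 cluster of 227 cells, led by Acp5 together with the B cell marker Ly6d and the neutrophil marker Retnlg, a choice made after the clusters had been seen. Before thinning the median depth of these background cells was 6188 UMIs in WT and 8050 UMIs in Cko, against 5493.5 and 6672 in B cell-like cells. In them a UMI of Igll1 was seen in 2.24% and 2.30% of cells and a UMI of Vpreb3, the highest, in 4.11% and 4.61%.

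Among B cell-like cells Igll1 was detected in 67.9% of WT and 65.4% of Cko cells and Vpreb1 in 58.3% and 62.7%. Both together were detected in 54.6% [51.2 to 58.0] and 55.5% [51.5 to 59.5]. The product of the single shares would be 39.6% and 41.0%, so joint detection was 1.38 and 1.35 times that product. Most cells with Vpreb1 also had Igll1, 93.7% in WT and 88.6% in Cko. Before thinning, the single shares were 71.1% and 72.2% for Igll1 and 65.6% and 69.8% for Vpreb1.

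Joint detection of Igll1 and Vpreb1 differed between the groups. It was 93.8% in WT and 96.3% in Cko pro-B-like cells, 84.7% and 89.7% in the Ccnd2 group, and 32.3% [27.7 to 37.1] and 38.9% [33.4 to 44.5] in the Igkc group. Of the immature or mature B-like cells, 0 of 18 WT cells (exact upper limit 18.5%) and 2 of 36 Cko cells had both. Within the Igkc group the joint share was 1.67 times the product of the single shares in WT and 1.37 times in Cko, against 1.04 and 1.02 times in pro-B-like cells, where nearly every cell had both. Depth and stage are shared by the cells of a group, and their part in this excess was not tested.

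All other pairs lay between 0.788 and 1.09 times their products over all B cell-like cells. Cd79a and Cd79b were found together in 79.5% and 78.6% of cells, 1.01 and 1.002 times the product. Each of these genes was found in most cells, which leaves joint detection little room to exceed the product. The lowest values were those of Fcrla with the surrogate light chain genes. Fcrla and Vpreb1 were found together in 24.5% and 29.2% of cells, 0.788 and 0.816 times the product, and Fcrla and Igll1 in 30.3% and 31.7%, 0.835 and 0.847 times.

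Igll1 detection was also set against Igkc, the kappa light chain that replaces the surrogate. In WT, Igll1 was found in 47.1% of 346 B cell-like cells with an Igkc UMI and in 82.3% of 502 cells without one. In Cko the shares were 44.3% of 314 cells and 87.4% of 302 cells. Inside the Igkc group the gap was smaller, 45.7% against 60% in WT and 47.8% against 78.0% in Cko. Igkc took part in the clustering, and free Igkc RNA in the droplets was not removed.

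**Figure D2:**
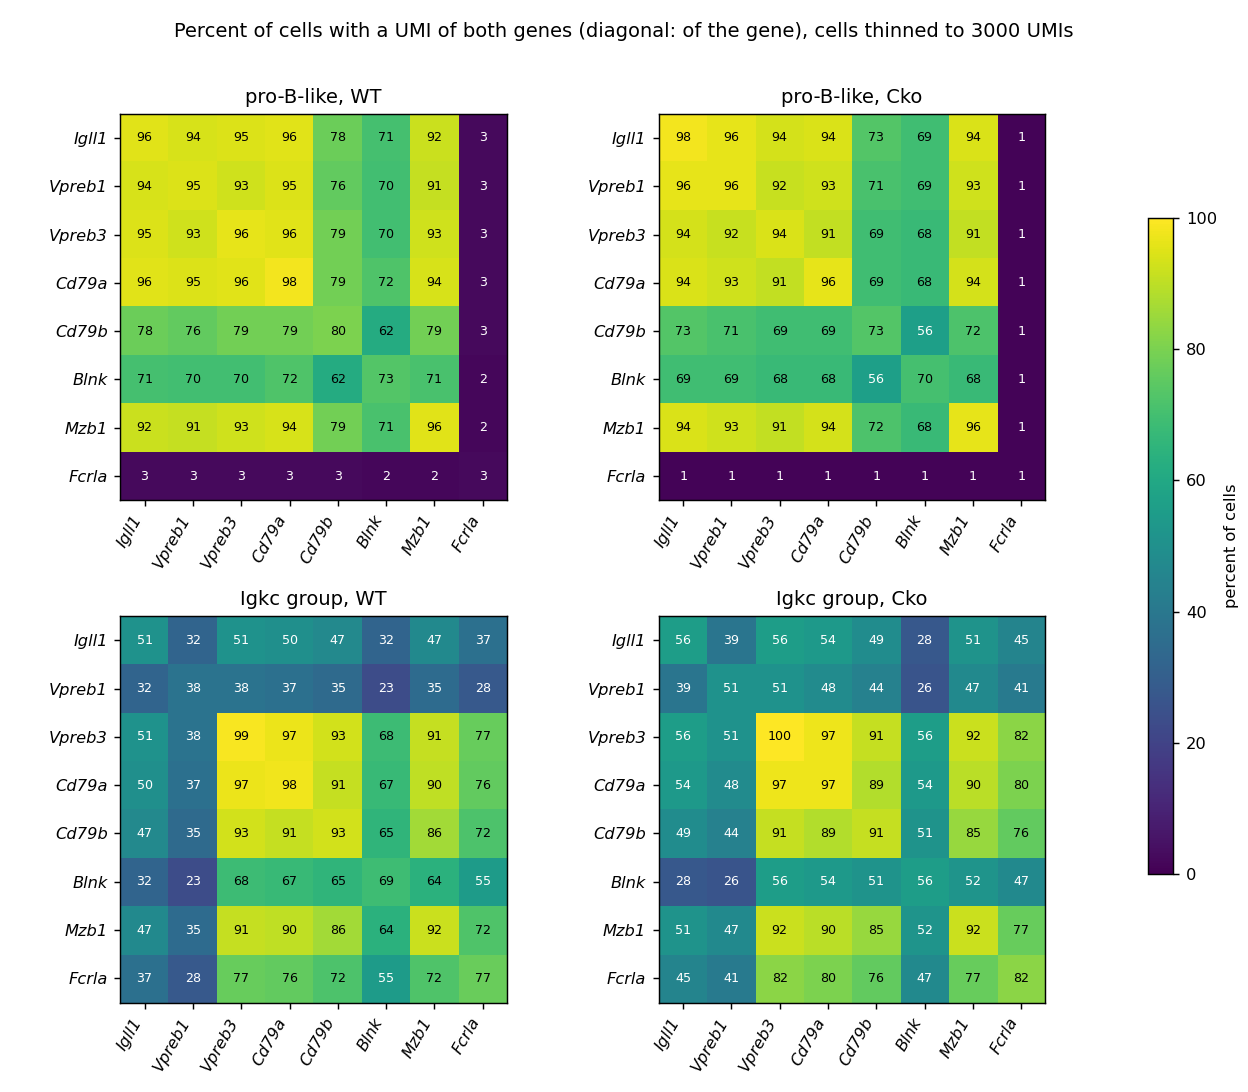
Percent of cells with a UMI of both genes of a pair, with the percent for the single gene on the diagonal, in pro-B-like cells and the Igkc group of each library, cells thinned to 3000 UMIs (colour scale from 0 to 100). In pro-B-like cells Igll1 and Vpreb1 were together in 93.8% of WT and 96.3% of Cko cells and Fcrla in 2.68% and 0.926%, while in the Igkc group the joint shares were 32.3% and 38.9% and Fcrla was found in 77.3% and 82.5%.

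Counted over all 8 genes, a B cell-like cell had a median of 6 of them, a pro-B-like cell 7 and a cell of the immature or mature group 5. At least 4 of the 8 were found in 96.1% of WT and 95.6% of Cko B cell-like cells. All 8 were found in 8.49% and 6.98%. The erythroid-like background had none of them in 87.4% of WT cells, and the median was 0 in every other class of the 18 clusters. In the dendritic-like cells described further on, which appear only with 25 clusters, it was 1 in WT and 2 in Cko.

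**Figure D3:**
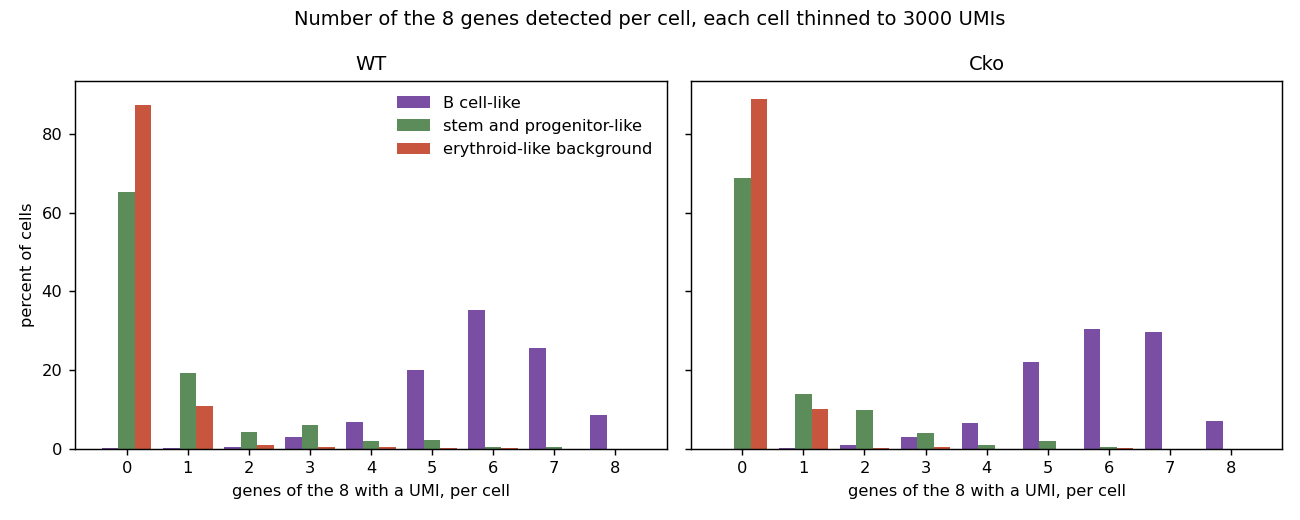
Percent of cells by how many of the 8 genes were detected at 3000 UMIs per cell, for B cell-like, stem and progenitor-like and erythroid-like background cells of each library. B cell-like cells centre on 6 genes, and the other classes peak at 0.

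Between the libraries the levels of all 8 genes over all B cell-like cells were close. Igll1 was at 1237 CPM in WT and 1339 CPM in Cko, a Cko to WT ratio of 1.08 [1.05 to 1.12]. Vpreb1 was at 888 and 1053 CPM, a ratio of 1.19 [1.14 to 1.23], and Fcrla at 284 and 334 CPM, a ratio of 1.18 [1.10 to 1.26]. Blnk was at 247 and 209 CPM (0.847 [0.783 to 0.917]) and Mzb1 at 885 and 797 CPM (0.900 [0.864 to 0.938]). The ratios of Vpreb3, Cd79a and Cd79b were 0.985, 1.08 and 1.13. A gene was called where the ratio was at least 1.5 in either direction, with at least 100 UMIs in both libraries together. By this rule 0 of the 8 genes were called, while 5.47% of all 4953 genes tested were (2.38% higher and 3.09% lower in Cko). Without the neutrophil- and hemoglobin-led sub-clusters the count was again 0 of 8, against 5.22% (2.17% higher, 3.04% lower). The median log2 ratio was 0.11 over the 8 genes and -0.10 over all genes.

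These pooled ratios held different values within the groups. Summed over Igll1, Vpreb1 and Vpreb3, the Cko to WT ratio was 1.05 [1.03 to 1.07] in all B cell-like cells but 0.914 in pro-B-like cells and 0.943 in the Ccnd2 group. In pro-B-like cells 7 genes had enough UMIs and 0 were called, against 9.13% of 2158 genes (2.32% higher, 6.81% lower). Mzb1 was lower in Cko there at a ratio of 0.762 [0.698 to 0.833], as was Blnk at 0.802 [0.693 to 0.928]. In the Ccnd2 group 0 of 8 were called, against 6.52% of 3817 genes (1.86% higher, 4.66% lower), with Blnk at 0.705 [0.561 to 0.882] and Mzb1 at 0.742 [0.685 to 0.803]. The Cko cells of this group were deeper, with a median of 15471 UMIs against 9855 in WT.

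In the Igkc group 2 of 8 genes were called, against 7.77% of 3539 genes (2.46% higher, 5.31% lower). Vpreb1 was higher in the Cko library, 610 against 362 CPM (1.69 [1.54 to 1.85]), and Blnk was lower, 258 against 390.1 CPM (0.661 [0.591 to 0.740]). Igll1 was at 760 against 581 CPM (1.31 [1.21 to 1.41]). However, this group was not alike in both libraries. When the B cell-like cells were cut into 8 sub-clusters, 1 of them, led by Herpud1, Hist3h2ba and Cap1, took 190 Cko cells and 8 WT cells of the group. By its markers this sub-cluster was named small pre-B, with 4 markers of that list beside 4 of another. Genotype, mouse, library and cell stage cannot be told apart as its source, and none was tested. The other main sub-clusters of the group held 392 WT and 122 Cko cells. In these, 0 of 8 genes were called, against 11.1% of 2686 genes (5.1% higher, 6.03% lower). Vpreb1 was at 370 CPM in WT and 427 CPM in Cko (1.16 [0.994 to 1.34]) and Blnk at 393 and 372 CPM (0.946 [0.807 to 1.11]). Igll1 turned, with 598 CPM in WT and 479 CPM in Cko (0.802 [0.699 to 0.917]). The Cko cells of the sub-cluster held almost by that library stood at 855 CPM for Igll1, 667 CPM for Vpreb1 and 215 CPM for Blnk. Neither call was made in the shared sub-clusters, which leave out those 190 Cko cells together with a few WT cells.

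The cells of the Igkc group were also ordered by the summed UMIs of 19 cycling markers and cut into 3 ranges of like size, with limits of 62 and 87 UMIs of 3000, and 11 WT and 6 Cko cells lay on the limits. This cut was chosen after values had been seen. Igll1 and Vpreb1 were lower in the range with most cycling UMIs, at 323 CPM in WT and 226 CPM in Cko for Igll1 and 152 and 228 CPM for Vpreb1. In the range with fewest they stood at 737 and 913 CPM and at 465 and 703 CPM. The middle range held 639 and 929 CPM of Igll1 and 430 and 746 CPM of Vpreb1. In Cko the middle range was thus not below the range with fewest. Vpreb3 had the opposite order, from 2635 and 2849 CPM to 4130 and 4412 CPM, and so had Fcrla, from 467 and 564 CPM to 688 and 822 CPM. In both libraries, cells with most cycling transcripts thus had less surrogate light chain mRNA and more Vpreb3 and Fcrla mRNA than cells with fewest.

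4 WT cells of the Igkc group stood apart, each with more than 1000 Igkc UMIs, where the next highest WT cell of the group had 23 and the highest Cko cell 46. They held 7005 of the 7831 Igkc UMIs of the WT group and 4212 UMIs of Ighm. No UMI of Igll1, Vpreb1 or Vpreb3 was counted in them. Mzb1 was counted 5, 9, 15 and 77 times in the 4 cells, while Cd79a gave 3 to 9 UMIs. Without them 0 of the 8 genes were called over all B cell-like cells, against 5.43% of genes (2.42% higher, 3.01% lower), and Vpreb1 and Blnk were called in the Igkc group, against 7.6% (2.41% higher, 5.19% lower).

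In the group led by neutrophil genes 3 of 7 genes were called higher in Cko, against 18.5% of 601 genes (8.65% higher, 9.82% lower): Igll1 (165 and 387 CPM), Vpreb1 (103 and 365 CPM) and Cd79a (533 and 953 CPM). The median cell of either library had no UMI of Igll1 or Vpreb1, and 1 Cko cell held 31 of the 106 Igll1 UMIs of the Cko cells and 1 held 38 of the 100 Vpreb1 UMIs. In immature or mature B-like cells 1 of 4 was called, Vpreb3 (0.604 [0.464 to 0.788]), against 26.1% of 299 genes (10.4% higher, 15.7% lower). These groups hold 84 and 54 cells.

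**Figure D4:**
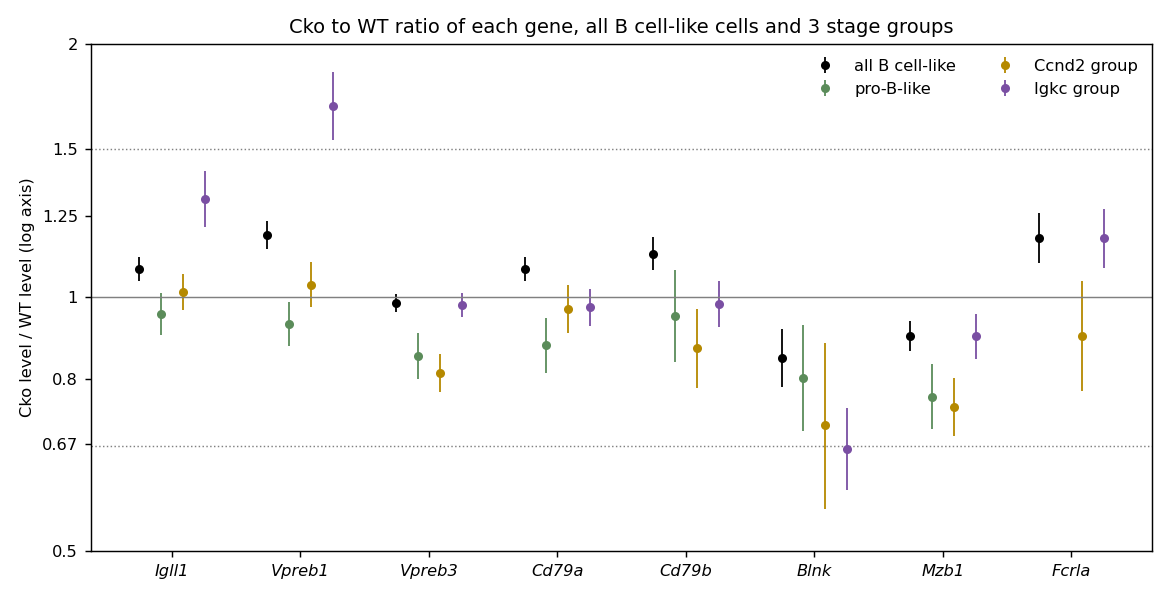
Cko level divided by WT level (log axis) for each gene in all B cell-like cells and in 3 groups, with 95% counting intervals and dotted lines at the 1.5-fold limits. Points in all B cell-like cells lie between 0.847 and 1.19. Vpreb1 and Blnk of the Igkc group lie outside the limits, and did not in the sub-clusters shared by both libraries.

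Vpreb2, a near copy of Vpreb1, was higher in the Cko library. It stood at 35.5 CPM in WT and 75.7 CPM in Cko B cell-like cells, a ratio of 2.13 [1.80 to 2.53]. In pro-B-like cells it was at 105 and 190 CPM. The last exons of Vpreb1 and Vpreb2 are equal at 562 of 576 bases (97.6%), and 20.7% of the 98-base stretches in them are identical, so reads of this pair can be split or lost between them. The sum of both genes had a ratio of 1.22.

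Other genes of the pathway were taken from a list of 41, of which 33 were listed in both libraries and all 33 had enough UMIs in B cell-like cells. Of these, 1 was called higher in Cko (Vpreb2) and 1 lower (Ighm, the mu heavy chain), a share near the 5.47% called over all genes, and the median log2 ratio was -0.05. The Ighm call rested on the 4 WT cells: its ratio was 0.351 with them and 0.899 [0.849 to 0.951] without. The kinase Syk was at 76.3 CPM in WT and 72.0 CPM in Cko, and the kinase Btk at 42.5 and 44.1 CPM. The early B cell factor Ebf1 was at 2333 and 2225 CPM, the interleukin-7 receptor Il7r at 128 and 134 CPM, and the recombinase Rag1 at 17.4 and 19.4 CPM. Their ratios lay between 0.944 and 1.11. Pax5 was not listed in both libraries and was not analysed here.

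Within pro-B-like cells 3 of 15 genes tested were called, against 9.13% of all genes. Vpreb2 was higher in Cko and the adaptor Grb2 (0.492) and the factor Ikzf1 (0.603) were lower. In the Ccnd2 group 2 of 29 were called, against 6.52% of all genes: Vpreb2 was higher and Ccnd3, a cyclin of dividing pre-B cells, was lower at 440.0 against 677 CPM. In the Igkc group 2 of 28 were called, against 7.77% of all genes. Ccnd2 was higher at 52.2 against 22.2 CPM. Ighm was called lower there, a call lost without the 4 WT cells. In the sub-clusters of that group shared by both libraries Ccnd2 had too few UMIs, and 1 of 23 genes was called, against 11.1% of all genes, Ccnd3 being lower at 440 against 802 CPM. In the neutrophil-led group, 1 of 6 genes was called, against 18.5% of all genes, Dok3 being lower at a ratio of 0.618.

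Outside the B cell-like class the 8 genes were low, and their loads differed from one another. B cell-like cells held 91.6% of all Igll1 UMIs in WT and 96.9% in Cko, and 91.2% and 97.1% of those of Vpreb1. For Cd79b the shares were the lowest of the 8, 74.2% and 81.1%. At least 4 of the 8 genes were found in 119 of 5419 WT cells (2.20%) and 30 of 3046 Cko cells (0.985%) outside the class. Scrublet called 35 and 5 of these doublets. In the erythroid-like cluster led by Acp5, Ly6d and Retnlg such cells made up 59 of 199 in WT and 3 of 28 in Cko.

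Cd79b was above Cd79a in myeloid progenitors, and not in these alone. In stem and progenitor-like cells Cd79b was at 54.3 CPM in WT and 60.5 CPM in Cko, and Cd79a at 35.3 and 34.7 CPM. This class includes the dendritic-like cells described below, in which Cd79b was higher still, so its value is not that of progenitors alone. Macrophage-like cells held 31 Cd79b UMIs in WT and 5 in Cko, against 17 and 0 of Cd79a. In granulocyte-monocyte progenitor-like cells Cd79b was at 41.6 CPM in WT and 47.8 CPM in Cko, and Cd79a at 19.0 and 13.8 CPM. The Cd79b to Cd79a UMI ratio was 2.18 [1.66 to 2.90] and 3.47 [2.59 to 4.72] there, and 1.56 [1.2496 to 1.95] and 2.02 [1.68 to 2.44] in monocyte-like cells. In erythroid-like background cells it was 0.729 [0.597 to 0.890] and 0.744 [0.443 to 1.23]. With the cluster led by Acp5, Ly6d and Retnlg included it was 0.770 [0.689 to 0.860] and 0.821 [0.589 to 1.14]. The intervals of the granulocyte-monocyte progenitor-like and monocyte-like classes lay above those of erythroid-like cells in both libraries. The part of RNA from other cells in these values was not tested.

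**Figure D5:**
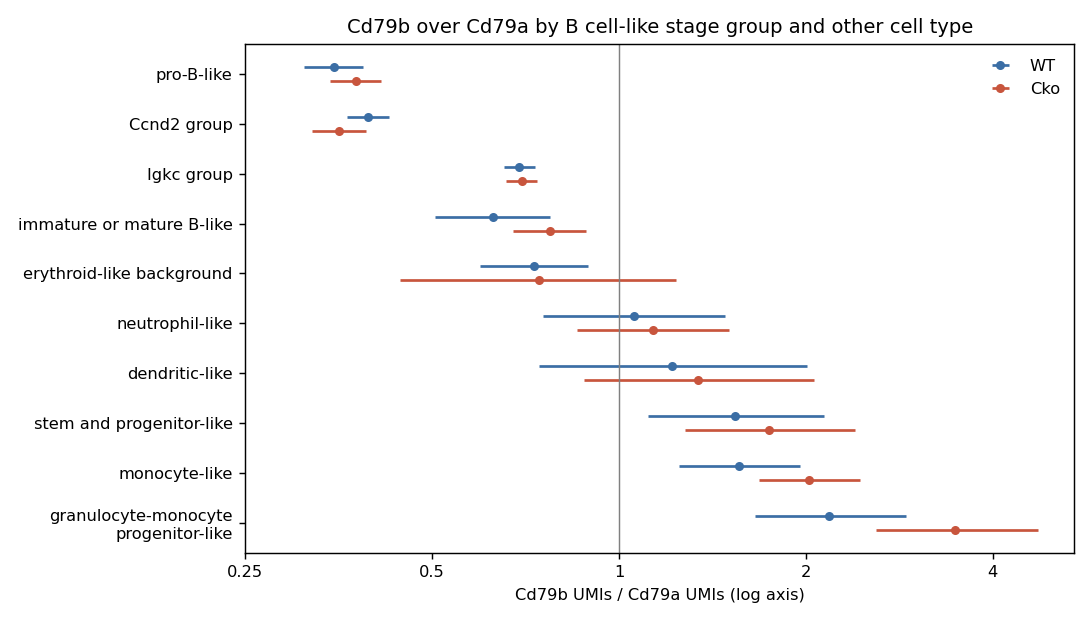
UMIs of Cd79b for each UMI of Cd79a by cell class and library, with 95% counting intervals. The ratio is between 0.347 and 0.376 in pro-B-like cells and reaches 2.18 in WT and 3.47 in Cko granulocyte-monocyte progenitor-like cells.

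Mzb1 was high in a second cell type. With 25 clusters a dendritic-like class of 51 WT and 51 Cko cells appeared, with Siglech, a receptor of plasmacytoid dendritic cells, at 573 and 715 CPM. With 18 clusters these cells lay in the stem and progenitor-like class. Mzb1 stood at 273 CPM in WT and 444 CPM in Cko in them, 46.6 [34.7 to 62.5] and 193 [98.9 to 431] times the erythroid-like background. The background of the Cko library rested on few UMIs, which gives the wide interval. Fcrla (120 and 140 CPM), Cd79b (130 and 167 CPM) and Blnk (93.3 and 70.0 CPM) were above background in them too. Igll1 was counted 30 times in WT and 6 times in Cko. At 3000 UMIs per cell, 6 of the 51 WT cells (11.8%) and 5 of the 51 Cko cells (9.80%) had at least 4 of the receptor genes. In the erythroid-like background these shares were 0.486% in WT and 0.230% in Cko. How much such cells add to the levels of the dendritic-like class was not tested.

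Likeness of pattern was measured by Pearson's r of log2(CPM + 10) over the 18 clusters, both libraries pooled, among 5870 genes. It is a description across clusters, which share libraries and B cell lineage. The genes most like Igll1 were Vpreb1 (0.989), Bfsp2 (0.980), Cplx2 (0.962), Gm19980 (0.955) and Rsph9 (0.953). For Cd79a they were Vpreb3 (0.986), Ebf1 (0.973), Pou2af1 (0.971), Fcrla (0.968) and Mzb1 (0.965). Mzb1 was most like Vpreb3 (0.975), Blnk (0.969), Cplx2 (0.968), Fcrla (0.967) and Pou2af1 (0.966).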

How the data were processed

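Droplet libraries (10x Genomics 3′ v2) of red blood cell-depleted BMCs were sequenced from 1 WT and 1 Cko mouse. The authors deposited UMI counts per gene and barcode, made with Cell Ranger on GRCm38 (version not given in the sources used here). Barcodes with at least 200 genes were kept, 16 WT and 8 Cko barcodes were left out, and called doublets (Scrublet in scanpy 1.11.5, 127 WT and 51 Cko cells) were kept. Both libraries were clustered together with Seurat 5.3.0, without the 8 genes, on 2000 variable genes and 20 principal components with mitochondrial and ribosomal shares regressed out, at resolution 0.5, and the B cell-like cells again at 0.2. Classes were named from at least 3 fixed markers. UMIs were summed per class and library and divided by all UMIs of the class to give CPM. Intervals are exact Poisson, exact binomial (Clopper-Pearson) and exact conditional intervals at 95% and cover counting error only. Cells were thinned to 3000 UMIs before shares were compared. Named genes were the 8 members, pathway genes past the 1.5-fold limit together with Syk, Btk, Ighm, Ebf1, Pax5, Il7r and Rag1, and the 5 genes most like Igll1, Cd79a and Mzb1, and 1 gene of the rule is not reported here. The members and lists were chosen with earlier results of these data known. Scripts were tested on simulated data. Alternatives covered clustering, filters, thinning and scaling.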

Additional observations from a re-analysis of the deposited data

How the results depend on the processing

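With 1 mouse per genotype the values carry no replicate error, and the number of cells and UMIs limits what counting can show. No paired analysis was possible because each genotype has 1 library. The count of the 8 genes past the fold limit over all B cell-like cells was 0 under every alternative run. In the Igkc group it was 2, and 0 in the sub-clusters shared by both libraries, an alternative chosen after seeing the data, where the log2 ratio of Igll1 turned from 0.39 to -0.32. The log2 ratio of Igll1, Vpreb1 and Vpreb3 summed (0.07), of which Vpreb3 gave the most UMIs, was 0.17 with each library clustered on its own, 0.25 with no regression, 0.11 in the Igkc group alone, 0.15 in the group led by Lcn2, Ngp and Camp and 0.048 without the neutrophil- and hemoglobin-led sub-clusters (chosen after seeing the data). It turned to -0.085 in the Ccnd2 group, -0.13 in pro-B-like and -0.45 in immature or mature B-like cells, where Vpreb3 was lower in Cko (1350 and 815 CPM) and Igll1 was not (53.0 and 132 CPM). The log2 ratio of Mzb1 turned from -0.15 to 0.021 with no regression. Joint detection of Igll1 and Vpreb1 was 48.5% in WT with no regression, 47.9% in WT and 49.8% in Cko at 2000 UMIs, 82.2% and 73.3% at 5000 UMIs (472 and 409 cells deep enough), 62.1% and 64.4% with no thinning, and 39.7% and 41.7% with 2 UMIs needed. The B cell-like share in WT was 21.5% with separate clustering and 31.7% with the Mt2-led cluster counted as erythroid (chosen after seeing the data). As a share of all cells it was 13.5% in WT and 16.8% in Cko. Separate clustering gave immature or mature B-like shares of 6.54% and 10.5% and pro-B-like shares of 11.8% in WT and 3.95% in Cko, against 13.2% and 17.5% with joint clustering. The causes were not tested. Of the summary values 79 stayed within their interval or within 1.5 times, 22 moved and 3 turned. Of the values per gene 75 stayed, 19 moved and 2 turned.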
